A study of Sus scrofa with 5 samples.

Results

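The genes described here encode the core of the basement membrane: the laminin chains LAMA1, LAMA5, LAMB1 and LAMC1, the collagen IV chains COL4A1 and COL4A2, the nidogens NID1 and NID2, the proteoglycan perlecan (HSPG2) and the collagen-binding protein SPARC. They were chosen by name from the known composition of this sheet, with earlier results of these data known. These 10 genes were found among the 30029 features of the single-cell count tables as well as among the gene symbols of the bulk table. Their levels were compared between cells of day 6 pig blastoids that were set apart by the level of a gene outside the list, and were described in the cells from which blastoids are made.

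A basement membrane is a thin sheet of extracellular matrix on which epithelia rest. A laminin molecule is a trimer of an alpha, a beta and a gamma chain, and laminin polymerises at the cell surface after binding to integrins and dystroglycan. Collagen IV trimers made of COL4A1 and COL4A2 chains form a second network, and nidogens and perlecan link both networks. In the early mammalian embryo the sheet lies between epiblast and hypoblast and under the trophectoderm, and the parietal endoderm of rodents, a derivative of the hypoblast, is known for its large output of laminin and collagen IV.

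The study derived porcine embryonic stem cells (pESCs) in 4FIXY medium, which holds activin A, IGF1, IL-6, its soluble receptor, WNT inhibitors and a ROCK inhibitor, and turned them into blastoids, which are embryo models shaped like a blastocyst. Single-cell RNA-seq was done on 2 libraries of blastoids from iBlastoid medium at day 6. These blastoids were picked by hand for a cavity and for compartments like the epiblast and the trophectoderm, and then dissociated with trypsin. Bulk RNA-seq was done on 3 libraries of pESCs. According to the methods, pESCs came from parthenogenetic blastocysts and grew on mitomycin-treated mouse embryonic fibroblasts, while 1 of the 3 bulk columns has a name that begins with IVF. Both kinds of sample are single conditions, so no treatment was compared. The labels do not say whether the 2 blastoid libraries came from separate cultures, and p-values then measure only the spread between these libraries, which may be technical.

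Cells were barcodes with at least 11223 UMIs in library 1 (7369 cells) and 9805 UMIs in library 2 (8175 cells), with a median of 29728 and 27588 UMIs per cell, and 9 cell barcodes occurred in both libraries. A cell belonged to a gate when its CPM (UMIs scaled to a total of 1000000 per cell) of the gate gene was at least 2 times the mean over all cells of its library and rested on at least 3 UMIs. This gave 1013 cells for COL3A1, a fibrillar collagen of mesenchyme, 1986 for POU5F1, a pluripotency factor, and 642 for CRABP1, a retinoic acid binding protein. GABRP, a subunit of a neurotransmitter receptor expressed in amnion and trophoblast, set apart 1519 cells, and TP63, a factor of stratified epithelia and trophoblast, 1819 cells. The 1048 cells that passed more than 1 gate, 810 of them with GABRP and TP63 together, were kept out of the comparisons. The 7517 cells that passed none, the largest class, entered no comparison either. Their mean levels over libraries were 124 CPM for LAMB1, 99.95 for LAMA5, 85.8 for LAMC1, 46.6 for COL4A1 and 39.7 for COL4A2. For HSPG2 the mean was 38.3 CPM, for SPARC 32.7, for NID1 18.2, for LAMA1 7.97 and for NID2 4.36.

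The gates are defined by 1 gene each and are no cell types. COL3A1-gated cells had all 8 mesenchymal markers above 10 CPM, with a summed level of 3078 and 3147 CPM in libraries 1 and 2, whereas the sum was 28.6 to 186 CPM in the other gates. They also had the highest GATA6 (191 and 196 CPM) and GATA4 (78.8 and 75.2 CPM), both hypoblast markers, and 538 of 555 and 444 of 458 of these cells held a UMI of GATA6 or GATA4. The hypoblast and endoderm markers SOX17, FOXA2, HNF4A, AFP and TTR were each below 1 CPM in these cells. APOA1, an apolipoprotein of the same list, was at 97.2 and 116 CPM there, below its 336 and 321 CPM in TP63-gated cells. Among endothelial markers TEK reached 91.2 and 83.1 CPM and KDR 18.4 and 21.9 CPM, while CDH5 was below 1 CPM. The part of these markers' cells in the results below was not tested. Median depth differed between gates as well, from 22449 and 19848.5 UMIs per COL3A1-gated cell to 38194 and 34187 per POU5F1-gated cell, so that shares of cells with a UMI are given with and without thinning. Free RNA was read from empty droplets, taken as barcodes with 10 to 100 UMIs. The gate gene lowest in a gate relative to empty droplets, such as CRABP1 at 14.1 and 15.1 CPM in TP63-gated cells against 281 and 380 CPM in empty droplets, puts an upper limit on the share of that gate's UMIs that free RNA of this composition could supply, and the limit was 3.98% to 10.8%. All 100 levels of the 10 members by gate and library were above what this limit allows, by at least 2.35 times (NID2 in the POU5F1 gate). How many of all genes exceed the same limit was not counted, so passing it does not set the members apart. The limit itself rests on the genes that define the gates.

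COL4A1 (chr11:76858332-76997409, minus strand, 54 exons) and COL4A2 (chr11:76996885-77161617, plus strand) lie head to head on chromosome 11 in Sscrofa11.1, the RefSeq form of the susScr11 build. The COL4A2 transcript that begins outside COL4A1 starts 133 bases from the first exon of COL4A1, and a further annotated COL4A2 transcript, which begins inside COL4A1, was listed at FPKM 0 in all 3 pESC libraries. The stretch between both first exons is printed because this pair moved together across the gates. The 250 bases before LAMA1 (chr6:100332843-100468457, plus strand, 64 exons) and LAMA5 (chr17:61698370-61747795, minus strand, 79 exons) are printed because these alpha chains moved in opposite directions in the CRABP1, GABRP and TP63 gates. Capitals mark GC boxes (GGGCGG) and CCAAT boxes (CCAAT) on either strand.
COL4A1-COL4A2, chr11:76997410-76997542, plus strand: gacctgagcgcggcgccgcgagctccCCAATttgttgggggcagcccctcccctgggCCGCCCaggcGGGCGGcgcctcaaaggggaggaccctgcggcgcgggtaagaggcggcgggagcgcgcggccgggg
LAMA1, chr6:100332593-100332842, plus strand: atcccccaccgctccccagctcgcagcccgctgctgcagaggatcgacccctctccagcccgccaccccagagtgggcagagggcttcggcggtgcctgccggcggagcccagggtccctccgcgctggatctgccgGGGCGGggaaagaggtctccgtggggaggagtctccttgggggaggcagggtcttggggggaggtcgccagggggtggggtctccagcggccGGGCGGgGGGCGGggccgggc
LAMA5, chr17:61747796-61748045, minus strand: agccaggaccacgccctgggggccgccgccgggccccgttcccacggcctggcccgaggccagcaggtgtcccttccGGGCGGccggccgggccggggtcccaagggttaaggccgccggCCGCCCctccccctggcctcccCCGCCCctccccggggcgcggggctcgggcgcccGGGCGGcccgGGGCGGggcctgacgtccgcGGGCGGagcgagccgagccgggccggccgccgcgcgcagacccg

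The COL4A1-COL4A2 stretch was 78.9% G and C and held 2 GC boxes, 1 CCAAT box, no TATA box (TATAAA) and no GATA motif. The GATA motif was searched as AGATAA, and all motifs were searched on both strands. Over the last 133 bases before 19531 annotated protein-coding genes, 39.1% held a GC box and 21.6% a CCAAT box. LAMA1 had 3 GC boxes and LAMA5 had 6 in their 250 bases, and none of the other motifs was found in either. Of all promoters of that length 45.9% held a GC box, and 6 of the 10 members did. For COL4A2 these 250 bases lie before the transcript that begins inside COL4A1 and held none of the motifs, whereas the printed stretch before its other transcript held 2 GC boxes. GC boxes thus stood before both alpha chains. None of the 10 members had a TATA box or GATA motif, which stood in 9.76% and 8.08% of all promoters.

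The first question was in which gated cells each laminin chain was highest, and the alpha chains gave different answers. Their directions were opposite in the CRABP1, GABRP and TP63 gates, but both were lower in the POU5F1 gate. LAMA1, the alpha chain of laminin-111, the first laminin of the mammalian embryo, was at 38.3 and 36.1 CPM in COL3A1-gated cells in libraries 1 and 2. It was at 30.0 and 28.5 CPM in CRABP1-gated cells and at 10.9 and 10.3 CPM in POU5F1-gated cells. Its lowest levels were 5.41 and 6.28 CPM in TP63-gated cells and 3.86 and 4.36 CPM in GABRP-gated cells. No pair of neighbouring gates in this order overlapped between libraries, and the highest mean was 9.04 times the lowest. Free RNA could supply at most 0.318 and 0.134 CPM of LAMA1 in the GABRP gate, limits that rest on only 10 and 7 LAMA1 UMIs in empty droplets. Against the mean of the other 4 gates on the log2 scale, LAMA1 was higher by 2.05 (SE 0.08, edgeR adjusted p = 5.00e-10) in the COL3A1 gate and by 1.37 (SE 0.08, edgeR adjusted p = 1.08e-07) in the CRABP1 gate. It was lower by a log2 change of -1.73 (SE 0.10) in the GABRP gate, -1.34 (SE 0.09) in the TP63 gate and -0.35 (SE 0.08) in the POU5F1 gate, all past the adjusted threshold of 0.05. The POU5F1 call was lost when the gate was set at 3 times the mean, where the change was -0.10.

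LAMA5, the alpha chain of laminin-511 that is the common alpha chain of epithelial basement membranes, was highest in GABRP-gated cells, at 181 and 200 CPM. TP63-gated cells followed with 145 and 146 CPM and COL3A1-gated cells with 92.3 and 102 CPM. POU5F1-gated cells had 71.6 and 68.1 CPM, and CRABP1-gated cells, which stood near the top for LAMA1, had the lowest LAMA5 at 51.6 and 54.2 CPM. Again no neighbouring gates overlapped. The log2 difference was 1.41 (SE 0.05, edgeR adjusted p = 6.68e-10) for the GABRP gate, 0.67 (SE 0.05, edgeR adjusted p = 1.41e-06) for the TP63 gate and -1.34 (SE 0.07, edgeR adjusted p = 1.89e-08) for the CRABP1 gate. Like LAMA1, LAMA5 was lower in the POU5F1 gate (-0.73, SE 0.06, edgeR adjusted p = 8.10e-07). In the COL3A1 gate LAMA5 was the only member that did not pass the test (-0.01, SE 0.06, edgeR adjusted p = 0.949).

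LAMA1 made up 36.8% and 34.5% of LAMA1 plus LAMA5 UMIs in CRABP1-gated cells of libraries 1 and 2, and 29.3% and 26.1% in COL3A1-gated cells. In POU5F1-gated cells the share was 13.3% and 13.1%. It fell to 3.59% and 4.13% in TP63-gated cells and to 2.09% and 2.13% in GABRP-gated cells. Transcripts of both genes may be captured unequally, so these shares compare gates and not the amounts of both chains.

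**Figure D1:**
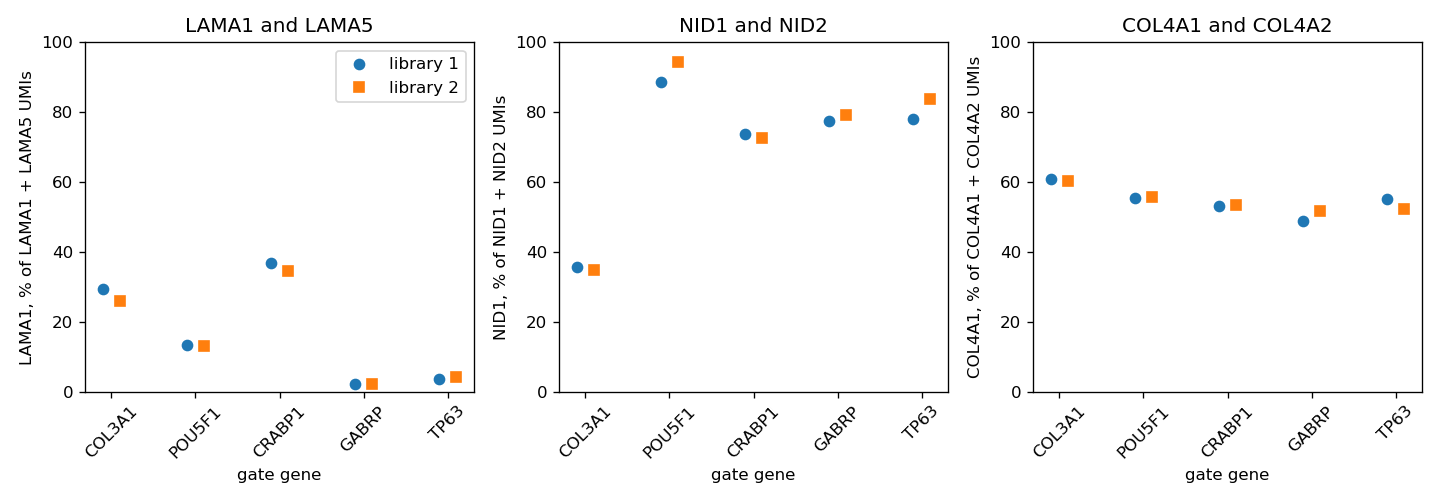
LAMA1 as a percentage of LAMA1 plus LAMA5 UMIs (left), NID1 of NID1 plus NID2 (middle) and COL4A1 of COL4A1 plus COL4A2 (right), each on an axis from 0 to 100%, by gate gene, with a circle for library 1 and a square for library 2. The LAMA1 share is between 26.1% and 36.8% in the COL3A1 and CRABP1 gates and at most 4.13% in the TP63 and GABRP gates, and the NID1 share is 35.7% and 34.8% in the COL3A1 gate, whereas the COL4A1 share stays between 48.9% and 60.9%.

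LAMB1 and LAMC1, the beta and gamma chains that pair with both alpha chains, varied least among the members besides HSPG2. LAMB1 was at 157 and 153 CPM in TP63-gated cells and at 155 and 138 CPM in COL3A1-gated cells, and these gates overlapped. It was at 138 and 130 CPM in the GABRP gate, 101 and 96.8 CPM in the POU5F1 gate and 82.1 and 77.6 CPM in the CRABP1 gate, so that its highest mean was 1.94 times its lowest. LAMC1 reached 163 and 181 CPM in COL3A1-gated cells, 140 and 129 CPM in TP63-gated cells and 123 and 116 CPM in GABRP-gated cells. The CRABP1 gate had 77.7 and 72.4 CPM and the POU5F1 gate 64.0 and 61.9 CPM. Both chains were higher in the COL3A1, GABRP and TP63 gates and lower in the POU5F1 and CRABP1 gates. For LAMB1 the log2 differences in this order were 0.43, 0.45, 0.47, -0.43 and -0.92 (SE 0.05 to 0.06), and for LAMC1 they were 0.93, 0.47, 0.44, -1.02 and -0.82 (SE 0.05 to 0.06), all called by edgeR.

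The collagen IV chains were highest in COL3A1-gated cells. COL4A1 was at 198 and 207 CPM there, 67.9 and 61.5 CPM in the CRABP1 gate and 35.5 and 34.7 CPM in the POU5F1 gate. TP63-gated cells had 29.3 and 32.0 CPM and GABRP-gated cells 21.8 and 26.0 CPM. The COL3A1 mean was thus 3.13 times that of the next gate and 8.47 times the lowest, without overlap between libraries. COL4A2 was at 127 and 135 CPM in the COL3A1 gate, 59.96 and 53.3 CPM in the CRABP1 gate and 22.8 to 29.3 CPM in the POU5F1, TP63 and GABRP gates, where the libraries' ranges overlapped. The log2 difference in the COL3A1 gate was 2.54 (SE 0.06, edgeR adjusted p = 9.00e-12) for COL4A1 and 2.10 (SE 0.07, edgeR adjusted p = 1.26e-10) for COL4A2. Both were also higher in the CRABP1 gate, by 0.24 (SE 0.07) and 0.34 (SE 0.08), and lower in the other gates, with changes from -1.12 to -0.75.

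Over the 10 sums of gate and library, COL4A2 was the gene with the highest Pearson correlation with COL4A1 (r = 0.993 on log2(CPM + 1), among 9589 genes with a mean of at least 10 CPM), a description over sums that share libraries. COL4A1 made up between 48.9% and 60.9% of the pair's UMIs in every gate and library, with the highest shares (60.9% and 60.5%) in COL3A1-gated cells. Within COL3A1-gated cells the Spearman correlation of COL4A1 and COL4A2 was 0.596 over 555 cells and 0.544 over 458 cells, and in the other 4 gates it was lower, from 0.194 to 0.370. COL4A1 and SPARC gave 0.492 and 0.482 in the same cells, while LAMA1 and LAMA5 gave 0.0173 and 0.0023. Cells of 1 library share its preparation, differ in depth and are not replicates, and no test was made. A COL4A1 UMI was found in 88.1% and 85.8% of COL3A1-gated cells and in 36.4% to 66.2% of cells in the other gates. The part of this difference in the correlations was not tested.

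Of the linkers, NID2 differed most between gates and HSPG2 least. NID2, which binds laminin gamma chains and collagen IV, was at 125 and 128 CPM in COL3A1-gated cells and at 18.4 and 20.0 CPM in CRABP1-gated cells. In the other gates it was at 1.29 to 3.12 CPM, where free RNA could supply at most 0.187 to 1.06 CPM, by gate and library. These limits rest on only 16 and 11 NID2 UMIs in empty droplets of libraries 1 and 2. The COL3A1 mean was 6.58 times that of the CRABP1 gate and 84.3 times the lowest, in the GABRP gate. A NID2 UMI was found in 79.1% and 74.5% of COL3A1-gated cells and in 4.52% and 3.09% of GABRP-gated cells. After each cell was thinned to 9805 UMIs the shares were 57.2% and 56.4% against 1.14% and 0.891%. Its log2 difference in the COL3A1 gate, 5.18 (SE 0.10, edgeR adjusted p = 2.27e-12), was the largest of any member in any gate. The paper named hypoblast-like cells of these libraries by GATA6 and GATA4, and reported NID2 as specific to them and COL4A1 as high there. Its clusters were not matched to the gates used here.

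NID1, the paralog with the same partners, was spread more widely. It was at 69.2 and 68.1 CPM in COL3A1-gated cells, 51.9 and 53.0 CPM in CRABP1-gated cells and 19.3 and 23.9 CPM in POU5F1-gated cells. TP63-gated cells had 11.06 and 14.2 CPM and GABRP-gated cells 5.84 and 4.89 CPM, again with no overlap of neighbours. NID1 was 35.7% and 34.8% of NID1 plus NID2 UMIs in the COL3A1 gate, and from 72.6% to 94.5% in the other 4 gates. The log2 differences were 2.09 (SE 0.10) for the COL3A1 gate and 1.36 (SE 0.11) for the CRABP1 gate, against -2.31 (SE 0.13) for the GABRP gate and -1.02 (SE 0.11) for the TP63 gate. In the POU5F1 gate NID1 did not pass the test (-0.12, SE 0.10, edgeR adjusted p = 0.324).

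HSPG2, the heparan sulfate proteoglycan that binds laminin and growth factors, was between 33.2 and 42.8 CPM in the COL3A1, GABRP and TP63 gates. It was at 29.4 and 28.0 CPM in the CRABP1 gate and 25.3 and 23.8 CPM in the POU5F1 gate, and its highest mean was 1.69 times its lowest. The GABRP and COL3A1 gates overlapped. The log2 difference was -0.62 (SE 0.07) in the POU5F1 gate, -0.45 (SE 0.08) in the CRABP1 gate and 0.44 (SE 0.06) in the GABRP gate. The call in the COL3A1 gate (0.22, SE 0.07, edgeR adjusted p = 0.0194) was lost with DESeq2, without TMM scaling and without the 5% of cells with most UMIs.

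SPARC, which binds collagen IV and acts in its deposition, had the highest level in COL3A1-gated cells, at 343 and 386 CPM. The CRABP1 and GABRP gates overlapped, at 62.5 and 67.9 CPM and at 69.5 and 57.5 CPM. POU5F1-gated cells had 26.1 and 28.9 CPM and TP63-gated cells 24.99 and 23.9 CPM. The highest mean was 14.9 times the lowest. A SPARC UMI was found in 98.0% of COL3A1-gated cells of either library and in 40.9% and 40.7% of TP63-gated cells, and after thinning in 89.2% and 90.9% against 18.4% and 19.1%. The log2 difference was 3.20 (SE 0.07, edgeR adjusted p = 4.96e-12) in the COL3A1 gate. SPARC was higher by 0.25 (SE 0.08, edgeR adjusted p = 0.0175) in the GABRP gate, a call that was lost without TMM scaling (0.01), and it did not pass the test in the CRABP1 gate (-0.14, SE 0.09).

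**Figure D2:**
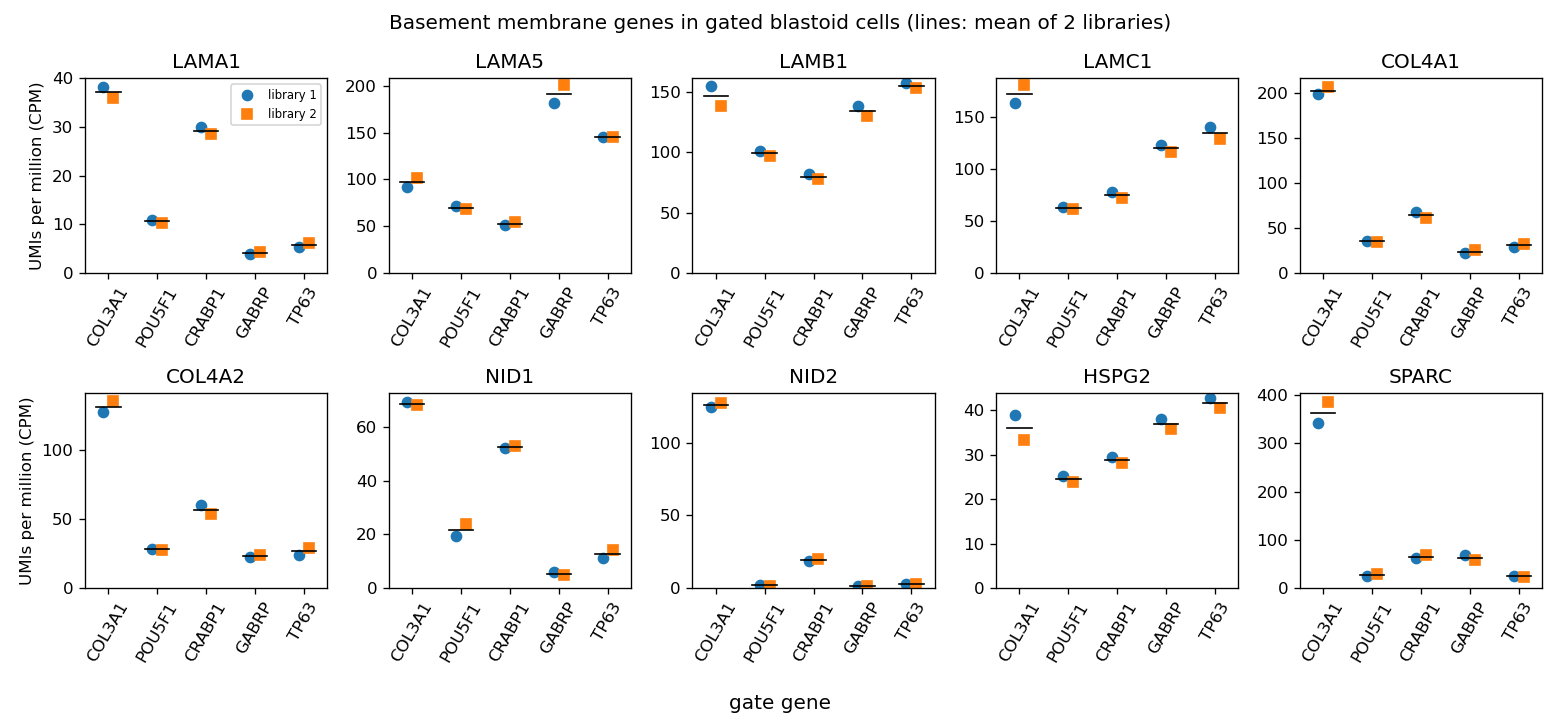
Level of each of the 10 genes in CPM, on axes that start at 0, by gate gene, with a circle for library 1, a square for library 2 and a line for the mean of 2 libraries. LAMA1, COL4A1, COL4A2, NID1, NID2 and SPARC stand highest in the COL3A1 gate, LAMA5 stands highest in the GABRP gate at 181 and 200 CPM, and LAMB1 and HSPG2 differ by less than 2 times between gates.

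By gate, the members split along these lines. In COL3A1-gated cells 9 of the 10 members were higher and none was lower, where 25.5% of the 17864 genes tested were called higher and 24.2% lower. Their median log2 difference was 2.07, beside -0.01 over all genes tested. The members were chosen with earlier results of these data known, so these counts describe them and do not test them as a set. In POU5F1-gated cells no member was higher and 9 were lower, with NID1 not called, where 26.5% of all genes were higher and 28.0% lower. Without TMM scaling the calls over all genes in that gate split into 5822 higher and 4013 lower in place of 4726 and 5008, and the members' calls kept their count. The contrasts of the gates are not independent, because high levels in the COL3A1 gate lower the differences of the other gates. COL4A1 and LAMA1, called lower in the POU5F1 gate, had means of 35.1 and 10.6 CPM there. These were above the TP63 gate (30.7 and 5.84 CPM) and the GABRP gate (23.9 and 4.11 CPM). LAMA5, LAMB1, LAMC1 and HSPG2 had lower means in the POU5F1 gate than in both of these gates.

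In CRABP1-gated cells COL4A1, COL4A2, LAMA1, NID1 and NID2 were higher and LAMA5, LAMB1, LAMC1 and HSPG2 lower, where 20.6% of all genes were called higher and 20.8% lower. In GABRP-gated cells LAMA5, LAMB1, LAMC1, HSPG2 and SPARC were higher and the other 5 members lower, where 28.7% of all genes were higher and 25.6% lower. TP63-gated cells had LAMA5, LAMB1, LAMC1 and HSPG2 higher and 6 members lower, where 20.9% of all genes were higher and 20.1% lower. The calls over all genes moved without TMM scaling, from 3683 higher and 3714 lower to 6437 and 2115 in the CRABP1 gate and from 5122 and 4571 to 3210 and 7896 in the GABRP gate. The median of all genes then stood at 0.19 and -0.26 in these gates.

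**Figure D3:**
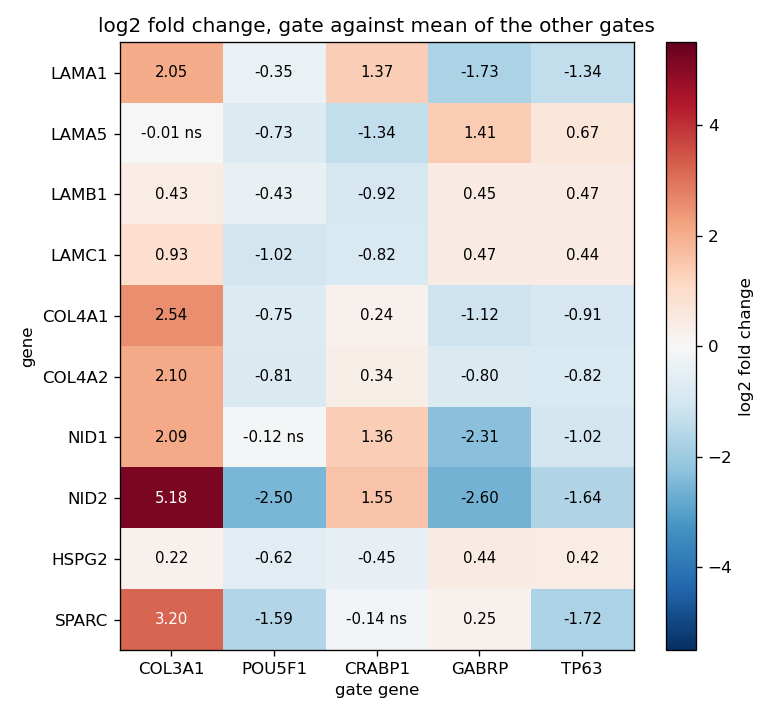
Log2 fold change of each of the 10 genes (rows) in each gate (columns) against the mean of the other 4 gates, with the value in each cell, red for higher and blue for lower, and "ns" where the edgeR adjusted p was not below 0.05. The COL3A1 column is red apart from LAMA5 at -0.01, and the LAMA5 row has its highest value, 1.41, under GABRP.

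The COL3A1-gated cells were compared among themselves by MYL7, a myosin light chain of the early heart, because part of them had heart muscle transcripts. There were 151 and 135 cells with MYL7 at 2 times the mean or more and 404 and 323 other cells. NID2 was at 97.8 and 97.2 CPM in MYL7-high cells and at 133 and 139 CPM in the others, and it was the 1 member called (log2 difference -0.44, SE 0.08, edgeR adjusted p = 0.0159), where 1.74% of 13286 genes were called higher and 1.87% lower. LAMB1 was at 115 and 129 CPM against 168 and 142 CPM (-0.31, SE 0.10), and COL4A1 at 166 and 186 CPM against 209 and 214 CPM (-0.23, SE 0.08). These did not pass the test (edgeR adjusted p = 0.139 and 0.168), but both were called with the library as a block. NID2 was not called with DESeq2. SPARC was at 352 and 369 CPM against 340 and 392 CPM, ranges that overlapped.

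Levels inside the other gates were described after the values were seen, with no test. In the CRABP1 gate, 34 and 32 cells had SCRG1 at 2 times the mean or more and held SOX10, a neural crest factor, at 98.2 and 150 CPM. They had COL4A1 at 156 and 155 CPM against 54.6 and 52.0 CPM in the rest of the gate, and LAMA5 at 13.3 and 12.1 CPM against 57.4 and 58.6 CPM. Their NID2 was at 6.14 and 6.62 CPM against 20.2 and 21.3 CPM. In the GABRP gate, 289 and 252 cells had TAC3 at 2 times the mean or more. Their SPARC was at 110 and 99.7 CPM against 48.0 and 39.7 CPM in the rest, and their LAMA1 at 1.85 and 1.35 CPM against 4.94 and 5.62 CPM.

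The wider pathway was read from lists of related genes, also chosen with earlier results of these data known. Their counts of calls stand beside 25.5% higher and 24.2% lower over all genes tested in the COL3A1 gate. These shares were 28.7% and 25.6% in the GABRP gate and 20.9% and 20.1% in the TP63 gate. Among other laminin chains, LAMB4, a beta chain, was at 16.8 and 14.8 CPM in COL3A1-gated cells and at most 1.61 CPM in any other gate (log2 difference 4.66, SE 0.24). LAMA2 (2.72, SE 0.14) and LAMA4 (2.14, SE 0.19), alpha chains of muscle and of vessels, were higher too, and LAMA3 (-1.88), LAMB3 (-1.43) and LAMC3 (-1.16) lower. LAMA3 and LAMB3, chains of stratified epithelia, were higher in GABRP-gated cells, by 2.91 (SE 0.19) and 2.38 (SE 0.28). The level of LAMB3 in that gate was low, at 2.61 and 2.67 CPM. In the TP63 gate LAMA3 was called higher (0.68) and LAMB3 was not called (0.14).

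Among 7 further collagens of basement membranes, COL4A6 (1.85), COL18A1 (1.38) and COL4A5 (1.07) were higher in COL3A1-gated cells, COL4A4, at 0.0643 and 0 CPM there and at most 1.27 CPM elsewhere, was lower and 3 were not called. COL4A5 and COL4A6 were higher in the CRABP1 gate too, by 0.91 (SE 0.10) and 1.24 (SE 0.12), and COL4A5, at 57.8 and 69.3 CPM there and 57.4 and 64.8 CPM in the COL3A1 gate, overlapped between both. COL7A1 (0.86, SE 0.19) and COL18A1 (0.85, SE 0.06) were higher in the GABRP gate, and no collagen of this list was higher in the TP63 gate. Of 13 genes for folding and modifying collagen, all 13 were higher in COL3A1-gated cells, with a median log2 difference of 1.25. They were led by PLOD2, a lysyl hydroxylase, at 104 and 108 CPM there and 15.5 to 31.0 CPM elsewhere (2.21, SE 0.06). P3H1, a prolyl hydroxylase (1.77, SE 0.06), and SERPINH1, the collagen chaperone (1.67, SE 0.09), came next. The GABRP gate had 4 of these 13 higher and 3 lower, near the shares over all genes, with PLOD3 (0.58) and P3H2 (0.37) at the top, and the TP63 gate had P3H2 alone higher (0.96) and 8 lower. Collagens COL1A1, COL1A2 and COL3A1 use the same enzymes and were at 527 CPM or more in the COL3A1 gate of either library.

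Of 15 other basement membrane proteins, 6 were higher and 7 lower in COL3A1-gated cells. EGFLAM (pikachurin) was at 106 and 108 CPM there and at most 8.61 CPM in any other gate (4.46, SE 0.11), followed by FBLN2 (3.32) and FBLN1 (2.83), both fibulins. TINAGL1 (-2.08), NTN1 (-1.63) and NPNT (-1.55) fell furthest. In GABRP-gated cells 8 of the 15 were higher and 7 lower, with TINAGL1 at 48.3 and 44.9 CPM (3.29, SE 0.12) and FREM1 (2.13, SE 0.10) in front. In TP63-gated cells 6 were higher and 7 lower, with TINAGL1 (1.83) and NPNT (1.48), an integrin ligand, in front.

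Of 10 receptors of laminin and collagen tested (ITGA7 had too few counts), 4 were higher and 6 lower in COL3A1-gated cells. ITGA1, the alpha chain of a collagen IV integrin, was at 20.5 and 32.1 CPM there and at most 4.32 CPM elsewhere (4.10, SE 0.19), and DDR2, a receptor kinase of fibrillar collagens (2.58, SE 0.06), and ITGA2 (1.31, SE 0.20) were higher as well. ITGB4 (-1.95), ITGA3 (-1.37) and DDR1 (-1.26) fell furthest. In GABRP-gated cells 9 of the 10 were higher, led by ITGA3, the alpha chain of a laminin receptor, at 88.5 and 72.0 CPM (2.68, SE 0.09), and by ITGA2 (1.48, SE 0.18). ITGA3 (1.54) and BCAM (0.83), a receptor for the LAMA5 chain, led the 5 called higher in TP63-gated cells. The difference between gates in the number of receptors called was not tested.

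Of 8 genes for matrix breakdown and its inhibitors, 5 were higher and 1 lower in COL3A1-gated cells. These were led by the protease ADAMTS1 at 75.8 and 80.1 CPM (3.18, SE 0.07), the collagenase MMP2 (1.36) and MMP15 (0.77), and CTSV fell by 0.43 on the log2 scale. The inhibitor TIMP1 was at 1010 and 974 CPM in GABRP-gated cells and at most 261 CPM elsewhere (3.45, SE 0.08), followed by CTSV (1.07), a lysosomal protease. The TP63 gate had CTSV (0.63) and TIMP1 (0.48) higher and 3 lower.

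**Figure D4:**
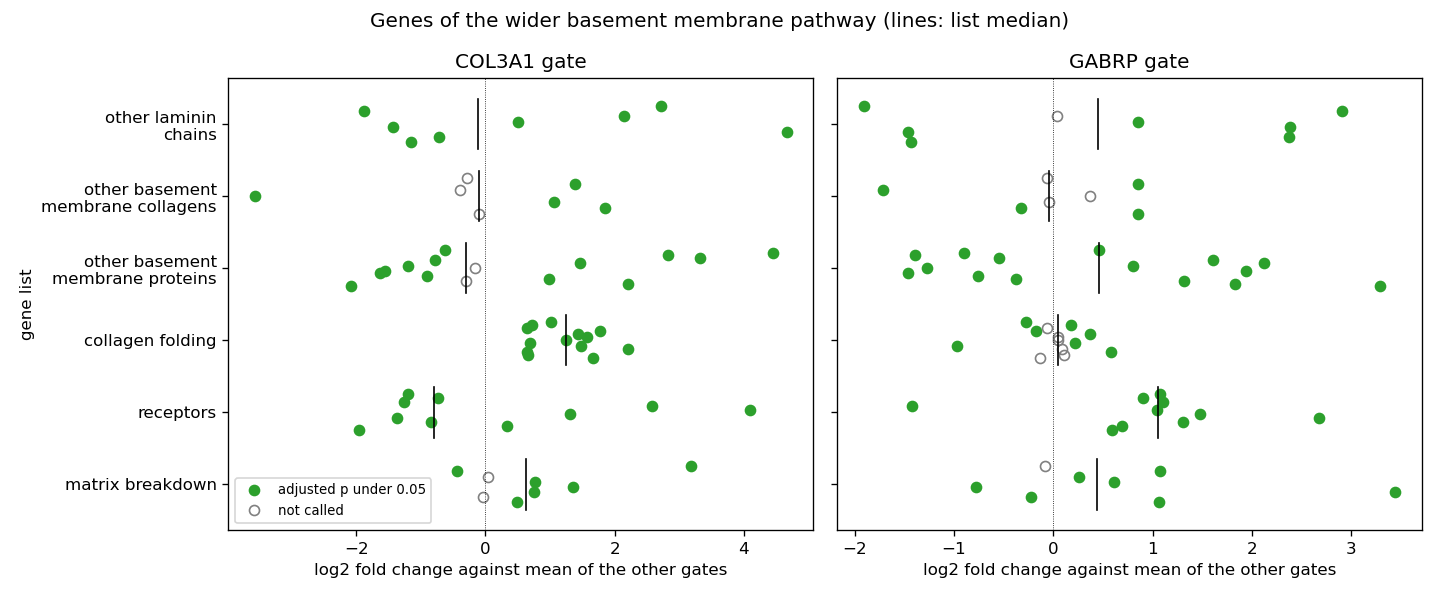
Log2 fold change against the mean of the other 4 gates (horizontal axis) of each gene of 6 lists (rows), for the COL3A1 gate (left) and the GABRP gate (right), with filled points for an edgeR adjusted p below 0.05, open points for genes not called and a line at each list's median. All 13 genes of collagen folding lie right of 0 in the COL3A1 gate, with a median of 1.25, and 9 of 10 receptors lie right of 0 in the GABRP gate.

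The genes whose pattern over the 10 sums was most like that of a member were found among 9589 genes with a mean of at least 10 CPM. After COL4A2, COL4A1 was followed by TMEM132C (r = 0.991), FAT4, DCBLD2 and NIN (0.988). LAMA1 was most like MRC2 (r = 0.995), a collagen-uptake receptor, then EPHA7, PREB, LOC100153543 and MMP16. LAMA5 was most like GGTA1P (r = 0.992), ME1, STXBP6, RPS28 and PRSS35, and SPARC most like RBMS3 (r = 0.992), CST3, SFRP1, MFGE8 and MAP1A. LAMA1 and LAMA5 themselves had r = -0.736, while LAMA1 and NID1 had r = 0.980. These values describe 5 gates in 2 libraries and carry no test.

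In pESCs, FPKM (fragments scaled to transcript length and to the total of mapped fragments) were added up over the transcripts of a gene, and since they are scaled by length they allow levels of different genes to be compared. SPARC was highest, at 153, 66.2 and 95.1 FPKM in the columns IVFP25, PA_4P7 and PAP25, with a mean of 105 ± 44.1 (SD, n = 3). Its lowest and highest library differed 2.31 times, so its place was set within a wide spread. LAMB1 was the steadiest, at 39.3, 42.6 and 39.6 FPKM (40.5 ± 1.84).

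LAMC1 had 24.97, 32.0 and 34.1 FPKM (30.4 ± 4.80) and LAMA5 had 25.2, 31.8 and 30.3 FPKM (29.1 ± 3.43), and both ranges overlapped. With its highest transcript alone LAMA5 was at 14.3, 17.4 and 18.1 FPKM, below LAMC1 in each library, so this overlap rests on adding up transcripts. LAMA1 had 4.84, 9.05 and 13.03 FPKM (8.97 ± 4.10), below LAMA5 in each library. The LAMA5 level was 5.22, 3.51 and 2.32 times that of LAMA1, and its highest transcript alone also stood above LAMA1 in 3 of 3 libraries.

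COL4A1 had 23.1, 26.8 and 35.002 FPKM (28.3 ± 6.08) and COL4A2 had 13.1, 21.8 and 21.2 FPKM (18.7 ± 4.88). COL4A1 was 1.77, 1.23 and 1.65 times as high as its partner, more in each library, although the ranges of both were close. NID1 had 13.8, 28.8 and 29.4 FPKM (24.0 ± 8.84) and HSPG2 had 5.32, 6.49 and 10.7 FPKM (7.51 ± 2.84), with means of 14.6 and 4.76 FPKM for the highest transcript alone. NID2 was lowest of the 10, at 0.748, 0.715 and 1.85 FPKM (1.11 ± 0.648), and NID1 exceeded it by 15.9 to 40.3 times.

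**Figure D5:**
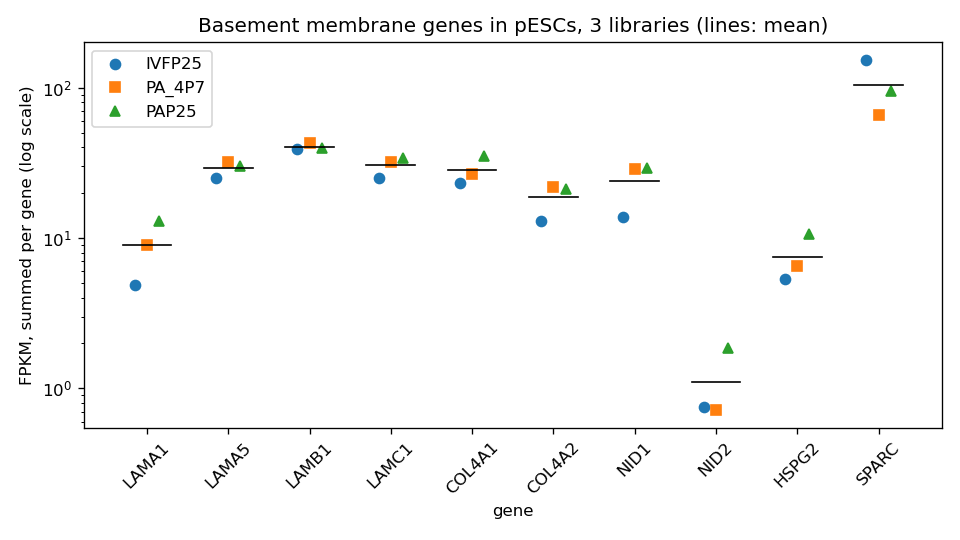
FPKM of the 10 genes in pESCs on a log axis, summed per gene, with a circle, square and triangle for the bulk libraries IVFP25, PA_4P7 and PAP25 and a line for their mean. SPARC is highest with a mean of 105 FPKM, NID2 lowest with 1.11 FPKM, and LAMA1 lies below LAMA5 in all 3 libraries.

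The bulk libraries come from cultures on mouse feeder fibroblasts, a cell type that makes collagen IV, laminin and SPARC. The 6 fibroblast genes looked at summed to 9.19, 8.06 and 8.81 FPKM in IVFP25, PA_4P7 and PAP25. COL1A1 was at 4.47, 3.60 and 3.92 FPKM, COL1A2 at 1.37, 1.93 and 2.31 FPKM and THY1 at 3.26, 2.41 and 2.57 FPKM. COL3A1 and LUM were at most 0.115 FPKM and POSTN was listed at 0 in all 3 libraries. Reads were mapped to the pig build, and how much RNA of the mouse feeders reached these levels was not measured. SPARC had the same order of libraries as the sum of the 6 genes, highest in IVFP25 and lowest in PA_4P7. Within that sum COL1A1 and THY1 had this order too, but COL1A2 was lowest in IVFP25 and highest in PAP25. LAMA1 and COL4A1 were also lowest in IVFP25 and highest in PAP25. An order of 3 libraries carries no test. The library PAP25 stood apart in endoderm markers, with SOX17 at 26.1 FPKM against 1.73 and 1.82 in IVFP25 and PA_4P7, FOXA2 at 81.8 against 13.2 and 15.5, GATA4 at 5.99 against 0.234 and 0.252, GATA6 at 2.64 against 0.301 and 0.264 and APOA1 at 350 against 50.1 and 46.8 FPKM. COL4A1, LAMA1, LAMC1, NID1, NID2 and HSPG2 were highest in that library, and without it the mean was 6.94 FPKM for LAMA1 and 0.731 FPKM for NID2. Some margins were small, such as NID1 at 29.4 FPKM against 28.8 in PA_4P7. COL4A2, LAMA5 and LAMB1 were highest in PA_4P7 and SPARC in IVFP25. The share of all genes that were highest in PAP25 was not computed. The part of feeder and endoderm RNA in the members' levels was not tested.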

How the data were processed

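The members and gene lists were chosen with earlier results of these data known. The authors trimmed bulk reads with Trim Galore 0.6.4, mapped them to susScr11 with HISAT2 2.2.1 and deposited FPKM per RefSeq transcript from StringTie 2.2.1, which were summed here per gene symbol. The 3 columns could not be tied to single pESC labels and served as 1 group with no test, and their depth is unknown. For blastoids the authors deposited raw UMI counts of all barcodes from Cell Ranger 7.1.0, 289452283 and 302211552 UMIs in libraries 1 and 2, of which 87.8% and 87.7% fell in cells as defined here. No doublet caller was run, cells in more than 1 gate were left out, and no mitochondrial filter was applied.

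Counts were summed per gate and library (10 sums of 7455579 to 40928230 UMIs), filtered by filterByExpr and scaled by TMM. edgeR 4.0.16 then gave a quasi-likelihood test of each gate against the mean of the other 4, with Benjamini-Hochberg adjustment over 17864 genes and a threshold of 0.05. CPM in the text are UMIs over all UMIs of a sum, and two-sided tests were used. The sums of 1 library share its preparation, so the library pairs them: deviations from gate means correlated at 0.0633 to 0.191 over 10 pairs of gates, and an alternative fit took the library as block. On simulated counts for the COL3A1 comparison (17337 genes), 92 of 100 genes changed by a log2 of 1, 100 of 100 changed by a log2 of 2 and 11 of 17137 unchanged genes were called. Alternatives were DESeq2 1.42.0, no TMM, no filter, gates at 3 times the mean, cells of several gates assigned to 1, a mitochondrial filter at 5 median absolute deviations, removal of the 5% of cells with most UMIs, and each library alone. Named genes were the members, gate genes and, from each list, up to 3 called genes in each direction with the largest change in the COL3A1 gate and the 2 highest in the TP63 and in the GABRP gate. Some genes are not reported here. LAMB3 in the TP63 gate, SCRG1 and TAC3 were chosen after values were seen. Positions and sequences are from RefSeq on Sscrofa11.1, where all 10 members matched by symbol.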

Additional observations from a re-analysis of the deposited data

Results flagged for a closer look

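The barcodes below the cell minimum with at least 1000 UMIs (3108 in library 1 and 3661 in library 2) entered no comparison. In both libraries 9 of the 10 genes stood above empty droplets in them, and the share over all genes was not computed. LAMA5 in library 1 was at 126 CPM in them and 125 CPM in empty droplets. Means over libraries were 58.6 CPM for COL4A1 (28.1 in empty droplets), 48.2 for COL4A2 (32.2), 11.97 for LAMA1 (4.54) and 125 for LAMA5 (120). For LAMB1 they were 106 CPM (60.9), for LAMC1 96.2 (46.6), for NID1 22.0 (10.0), for NID2 18.2 (7.22) and for SPARC 97.5 (46.1). The levels in empty droplets rest on few UMIs for LAMA1 (10 and 7) and NID2 (16 and 11). HSPG2 was below its level in empty droplets (33.5 against 39.4 CPM). The gate genes CRABP1 (883 against 330 CPM), COL3A1 (178 against 79.8 CPM), TP63 (69.0 against 41.5 CPM) and POU5F1 (90.6 against 76.1 CPM) were higher in these barcodes as well, in both libraries. GABRP was higher in library 1 (161 against 151 CPM) and lower in library 2 (138 against 156 CPM). Their part in the members' levels was not tested, and no test was made.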

How the results depend on the processing

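Of 400 alternative values of the members' fold changes between gates that had a test, 390 kept their direction and their side of the threshold. The HSPG2 call in the COL3A1 gate was lost with DESeq2 (log2 0.21), without TMM (0.17) and without the 5% of cells with most UMIs (0.19). LAMA1 in the POU5F1 gate was lost with gates at 3 times the mean (-0.10) and SPARC in the GABRP gate without TMM (0.01). Members that were not called changed sign: LAMA5 in the COL3A1 gate with gates at 3 times the mean (0.021), with the mitochondrial filter (0.0043) and without the 5% of cells with most UMIs (0.0020), NID1 in the POU5F1 gate with gates at 3 times the mean (0.093) and SPARC in the CRABP1 gate without TMM (0.058). SPARC in the MYL7 comparison turned to -0.0095 with MYL7 at 3 times the mean. Without TMM the genes called were 6437 higher and 2115 lower in the CRABP1 gate and 3210 higher and 7896 lower in the GABRP gate. The MYL7 comparison called 480 genes, 274 and 0 members with DESeq2, and 1275 genes and 3 members with the library as replicate block. The block left the members' calls between gates at 9 higher in the COL3A1 gate and changed no other call of a member between gates. Without replicate 1 or 2 each gate has 1 sum, so fold changes were computed with no test, and LAMA5 in the COL3A1 gate and NID1 in the POU5F1 gate, neither called, changed sign without library 1 (0.03 and 0.03). With the highest transcript alone, FPKM fell to 16.6 for LAMA5, 14.6 for NID1 and 4.76 for HSPG2. Thinning can only lower the share of cells with a UMI, and it did so for every member in every gate. The causes of the other changes were not tested. Counts limit NID2 outside the COL3A1 and CRABP1 gates, where it was at 1.29 to 3.12 CPM, and 2 libraries limit every test.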
